A study of Saccharomyces cerevisiae with 6 samples.

Results

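The genes examined here are the 40 of 4073 measured genes of budding yeast whose symbol on the array is VPS followed by a number, for vacuolar protein sorting. They were chosen by that symbol alone, with no use of their values. Each was read by 7 spots, and those spots were averaged array by array. A total of 38 of these symbols are current, while VPS66 is now LOA1 and VPS67 is now VPS51 in the RefSeq gene table of assembly R64. That table also holds VPS52, VPS54 and VPS501, which are not analysed here, and several classic sorting genes are on the array under other symbols such as PEP3 and SNF7. The series set heated against unheated cells on 6 arrays of 2 channels. In 3 arrays both channels held BY4741, a haploid laboratory strain with deleted or cut HIS3, LEU2, MET17 and URA3, called wild type here. In the other 3 both held an rpd3Δ mutant of that background, which lacks the histone deacetylase gene RPD3 and shares those marker deletions. The control cells were kept at 25 °C and the heated cells at 39 °C for 20 minutes, after growth in rich medium to mid-log phase, from 3 independent cultures per strain. The labels do not say how many isolates of the mutant were used.

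VPS genes came from yeast mutants that secrete vacuolar hydrolases instead of delivering them to the vacuole, the degradative organelle of yeast. Their products act in sequence on endosomes: receptors and dynamin-like proteins at the Golgi, Rab5-type GTPases and a lipid kinase on early endosomes, the ESCRT complexes that sort ubiquitinated membrane proteins into internal vesicles, the tethers CORVET and HOPS that precede fusion, and retromer and GARP, which return receptors. Later screens added members that work elsewhere, among them nuclear proteins. Rpd3 is a deacetylase that represses and, under stress, also helps to activate many yeast genes.

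All values are log2 ratios within an array, read as heated over control, so that 1 is a 2-fold rise. Neither the base of the logarithm nor its sign was given with the values. Base 2 was read from the range of the values, and the sign is the likely one, with HSP104, the heat-induced disaggregase gene, at 4.04 ± 0.34 (SD, n = 3) for wild type against 4.81 ± 0.85 for the mutant. The labels put heated cells in the Cy3 channel on every array, so dye and heat cannot be told apart within a strain, while a shared dye effect cancels between strains. Across genes, arrays correlated with r = 0.952 to 0.980 within wild type, 0.851 to 0.956 within the mutant and 0.504 to 0.853 between strains. RPD3 lacks RNA in both channels of the mutant arrays, and its ratio there was -0.07 ± 0.04, not called, while its strain difference of -0.29 ± 0.09 (SE) was called although no RPD3 RNA is made there. A gene was called, and is said to have risen or fallen, where its limma p, adjusted over all 4073 genes by the Benjamini-Hochberg method, was under 0.05. In bulk RNA of a culture, a change in every cell and a change in some of the cells cannot be told apart.

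Among the 40 genes, heat moved most by little and in both directions. In wild type 13 rose, 7 fell and 20 were not called, where 29.7% of all genes rose and 36.3% fell, 66.0% together. In the rpd3 deletion 21 rose, 6 fell and 13 were not called, against 33.7% and 31.9% of all genes, 65.6% together. A change of at least 2-fold was called in 1 gene per strain, VPS73 in wild type and VPS21 in the mutant, where 20.5% and 16.0% of all genes reached it. Both were rises, which 8.59% of all genes reached in wild type and 6.85% in the mutant. No member fell that far, where 12.0% and 9.16% of all genes did. The median over the 40 genes was 0.06 for wild type against 0.23 for the mutant, beside -0.05 and 0.00 over all genes. Array by array that median was 0.06, 0.04 and 0.11 for wild type, then 0.23, 0.17 and 0.30 for the deletion, so that every mutant array lay above every wild-type array. The medians of all 4073 genes were separated too, with -0.04, -0.07 and -0.03 for wild type, then -0.00, -0.01 and 0.02.

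**Figure D1:**
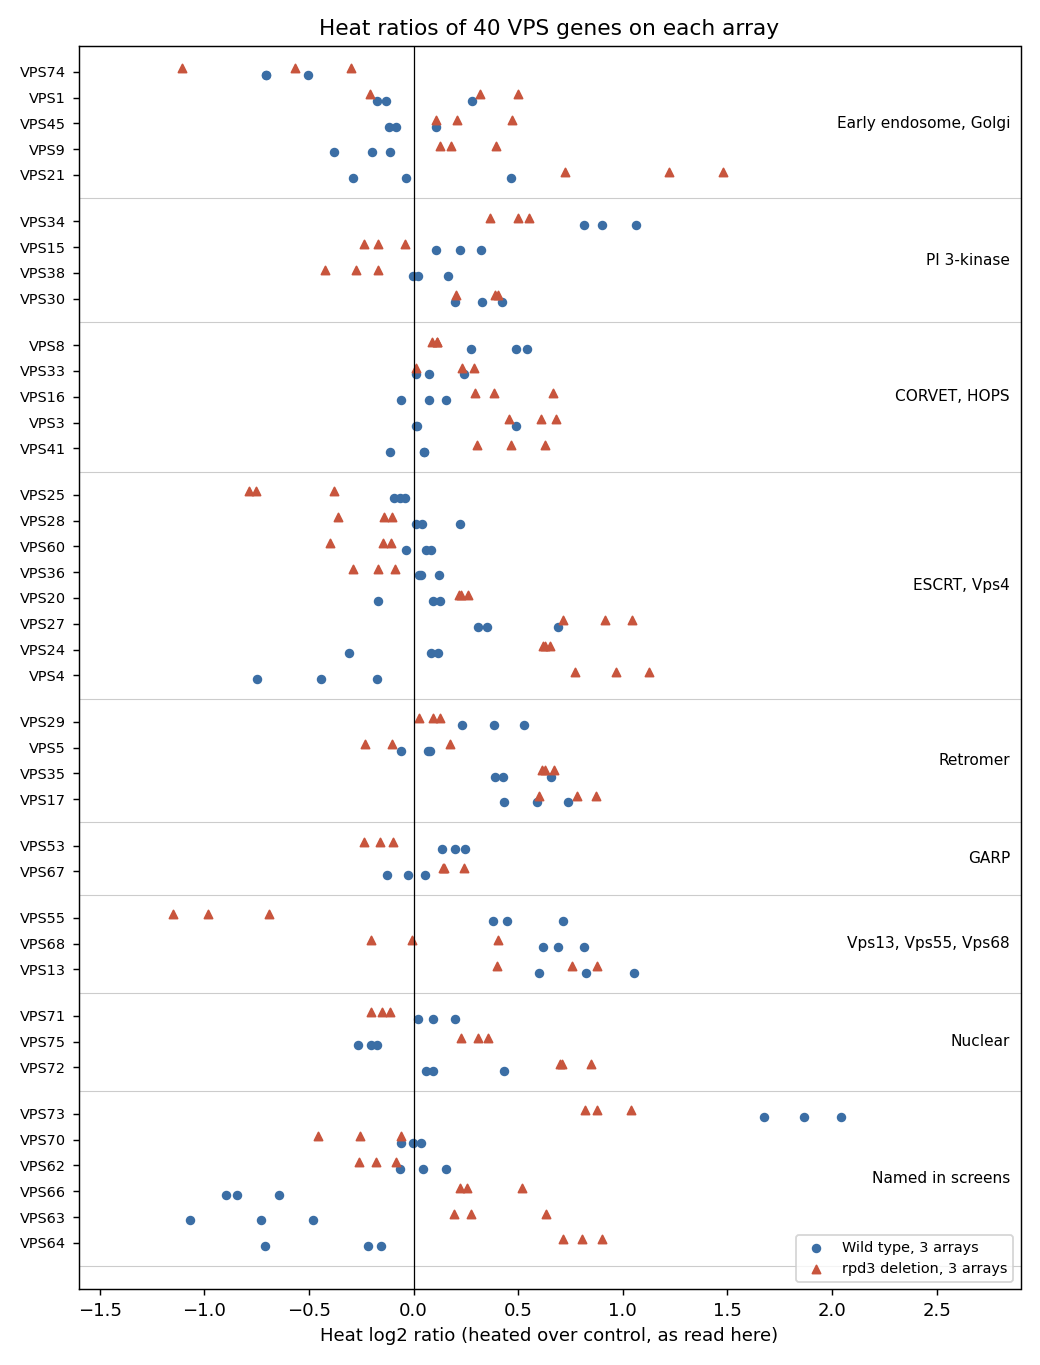
Heat log2 ratio (x axis) of each of the 40 VPS genes on each of 6 arrays, with genes grouped by role; circles are the 3 wild-type arrays and triangles the 3 rpd3 deletion arrays. VPS73 lies farthest to the right in wild type, at 1.67 to 2.04, and VPS55 farthest to the left in the mutant, at -1.15 to -0.69.

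The order of the genes differed between the strains. Over the 40 genes the mean ratios of wild type and mutant correlated with r = 0.19, beside r = 0.76 over all genes, whose ratios spread over a wider range (SD 0.97 against 0.47 in wild type). The strain difference, mutant minus wild-type ratio, was called for 21 of the 40 genes, 12 higher and 9 lower in the mutant. Over all genes 24.8% were higher and 21.0% lower, 45.8% together. A called difference of at least 2-fold was found for 6 of the 40, where the share over all genes was 11.6%. Of these 5 were higher (7.27% of all genes) and 1 was lower (4.35%). For 31 of the 40 genes, and 58.4% of all genes, no mutant array lay within the range of the 3 wild-type arrays or the reverse. All 21 called genes were among the 31. Each strain was its own reference, so a difference between strains can stem from unheated cells, heated cells or both together.

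**Figure D2:**
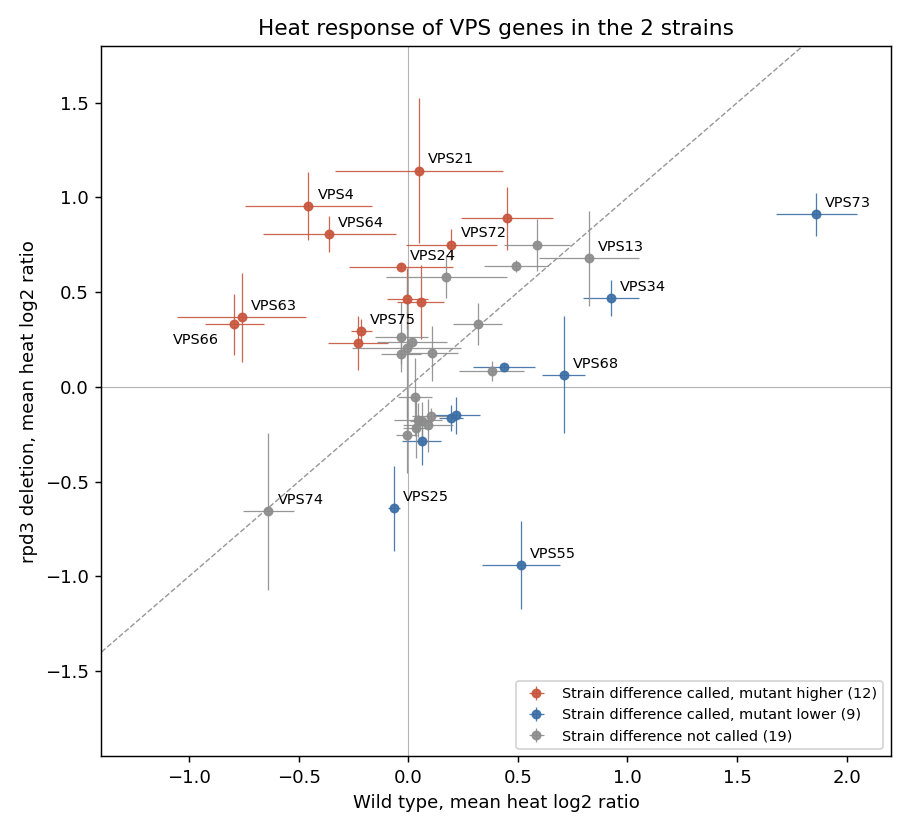
Mean heat log2 ratio of each VPS gene in wild type (x axis) and in the rpd3 deletion (y axis), with bars of 1 SD over 3 arrays; the dashed line marks equal ratios. Of the 21 genes with a called difference, VPS4, VPS63, VPS64, VPS66, VPS75 and VPS9 lie in the upper left. They fell in wild type and rose in the mutant. VPS24 and VPS41 lie there too, with uncalled wild-type means of -0.03 and -0.00. VPS55, which rose in wild type and fell in the mutant, lies in the lower right, as do VPS15, VPS38 and VPS53.

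A group of 6 genes fell in wild type and rose in the mutant: VPS4, VPS9, VPS63, VPS64, VPS66 and VPS75. Over all genes 4.93% did so. All 6 also had a called strain difference, as did all 201 such genes on the array. The wild-type falls of VPS9 and VPS75 were lost with arrays centred on the median of all genes (adjusted p = 0.091 and 0.0559). With quantile normalization VPS9 lost both its fall (adjusted p = 0.0692) and its rise (0.0597). The reverse, a rise in wild type and a fall in the mutant, was found for VPS55 alone, and for 2.16% of all genes. A further 7 rose in both strains (VPS13, VPS17, VPS27, VPS30, VPS34, VPS35 and VPS73), where 18.5% of all genes did. VPS74 alone fell in both, where 21.0% of all genes did. In 5 genes (VPS8, VPS15, VPS29, VPS53 and VPS68) a rise was called in wild type only, where 9.04% of all genes stood so, and the strain difference was called for all of them but VPS29, as it was for 236 of the 368 such genes on the array. In 8 (VPS3, VPS16, VPS20, VPS21, VPS24, VPS41, VPS45 and VPS72) it was called in the mutant only, against 10.2% of all genes, and 5 of these had a called strain difference, as had 272 of the 417 such genes. VPS25, VPS38, VPS60 and VPS70 fell in the mutant and were uncalled in wild type, where 8.72% of all genes stood so.

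At the entry to the pathway, the Rab5-type GTPase gene VPS21 had the highest ratio in the mutant. Its ratio was -0.03, -0.29 and 0.47 in wild type (arrays in order of replicate, here and throughout), but 1.22, 0.73 and 1.48 after the deletion. The strains did not overlap, although wild-type array 3 stood above the other two. The mutant mean was a 2.21-fold rise (adjusted p = 0.000916) and the strain difference 1.09 ± 0.25 (SE, adjusted p = 0.0108). VPS9, which encodes the exchange factor that activates Vps21, was at -0.38, -0.20 and -0.11 in wild type against 0.18, 0.13 and 0.40 in the mutant. It fell in the first strain, rose in the second and differed by 0.46 ± 0.12 (adjusted p = 0.0196). VPS45, a Sec1/Munc18 protein of endosomal fusion, rose in the mutant (0.26 ± 0.19, SD, adjusted p = 0.0372), with an uncalled difference of 0.29 (95% interval -0.01 to 0.60). The dynamin-like gene VPS1 was called nowhere. VPS74, a Golgi adaptor that holds glycosyltransferases in place, fell in both strains, with means of -0.64 ± 0.11 for wild type and -0.66 ± 0.41 for the mutant, and its strain difference of -0.02 had an interval of -0.49 to 0.46. Among the mutant arrays, array 2 was lowest for all 5 of these genes.

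The other Rab5-type GTPase genes are on the array under YPT symbols. YPT53 rose in wild type (1.66 ± 0.05) and in the mutant (1.74 ± 0.31), the highest ratios among the partner genes described below. YPT52, named after its values were seen, was called in neither strain, with 0.19 ± 0.21 in the mutant.

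The Vps34 complexes make phosphatidylinositol 3-phosphate, the lipid that marks endosomes. VPS34, the kinase itself, rose in both strains but less in the mutant. Its ratio was 0.81, 1.06 and 0.90 in wild type, then 0.50, 0.55 and 0.36 in the mutant. The groups stood apart, with a strain difference of -0.46 ± 0.11 (adjusted p = 0.0152). VPS15, the protein kinase that activates Vps34, was 0.22 ± 0.11 in wild type, where it rose, and -0.15 ± 0.10 in the mutant, where it was not called (difference -0.37 ± 0.11, SE, adjusted p = 0.0292). A single stray spot of VPS15 read -1.04 and -1.15 on mutant arrays 1 and 3, and also -1.07 on wild-type array 3. There the other 6 spots averaged 0.31. By the median of the spots, VPS15 rose by 0.28 for wild type (adjusted p = 0.00631). Its mutant ratio was then -0.04 and its strain difference -0.33 (adjusted p = 0.0257). Its wild-type rise was lost with the length trend described below removed (0.09, adjusted p = 0.462), as it was after centring each array on the deleted marker genes HIS3, LEU2, MET17 and URA3 (0.07, adjusted p = 0.456). VPS38, the subunit of the endosomal form, fell in the mutant (-0.29 ± 0.13, SD, adjusted p = 0.0141) and differed by -0.35 ± 0.11 (SE, adjusted p = 0.0374). VPS30, also known as ATG6 and shared with the autophagy form, rose by nearly the same amount in both strains, 0.32 and 0.33, with a difference of 0.02 (95% interval -0.25 to 0.28). Thus 3 of the 4 subunits were lower in the mutant and 0 higher, with a group median of -0.36, where over all genes 21.0% were lower. After the same centring that median was -0.12 and all 3 calls ended, at -0.22 for VPS34 (adjusted p = 0.212), -0.13 for VPS15 (0.395) and -0.11 for VPS38 (0.508).

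Of the tethers, CORVET acts on early endosomes and HOPS at the vacuole, and they share a core. In the mutant VPS3, VPS16 and VPS41 rose, with ratios of 0.61, 0.46 and 0.68 for VPS3, a CORVET subunit. VPS16, of the core, was at 0.38, 0.29 and 0.67 on those arrays, and VPS41, of HOPS, at 0.63, 0.30 and 0.47. In wild type none of these 3 was called, with means of 0.17, 0.06 and -0.00. The strain difference was called for VPS41 (0.47 ± 0.12, SE, adjusted p = 0.0170) and VPS16 (0.39 ± 0.13, adjusted p = 0.0435), and not for VPS3 (0.41 ± 0.16, adjusted p = 0.0656), where wild-type array 3 at 0.49 lay within the mutant range. VPS8, the other CORVET subunit, went the other way. It rose in wild type (0.28, 0.49 and 0.54), was at 0.11, 0.09 and 0.11 in the mutant, and had a difference of -0.33 ± 0.11 (adjusted p = 0.0409). VPS33, the Sec1/Munc18 subunit of the core, was called nowhere.

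The ESCRT genes held the largest rise of the strain difference and also falls. VPS4 encodes the ATPase that takes the ESCRT-III polymer apart. Its ratio was -0.44, -0.75 and -0.17 in wild type, then 0.97, 0.77 and 1.13 in the mutant. Every wild-type array was below 0 and every mutant array above 0.7, and the strain difference of 1.41 ± 0.17 (SE, 2.66-fold, adjusted p = 0.00112) was the highest of the 40 genes. VPS24, an ESCRT-III subunit, was at 0.08, -0.31 and 0.12 in wild type against 0.63, 0.65 and 0.62 in the mutant (difference 0.67 ± 0.14, adjusted p = 0.00707). VPS27, the ESCRT-0 subunit that binds ubiquitinated cargo, rose in both strains, at 0.31, 0.35 and 0.69 in wild type, then 0.91, 0.71 and 1.04 in the mutant (difference 0.44 ± 0.15, adjusted p = 0.0418). VPS20, which starts the ESCRT-III polymer, rose in the mutant (0.23 ± 0.02, SD), with an uncalled difference of 0.22.

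Of the remaining ESCRT members, VPS25 of ESCRT-II was lower in the mutant. Its ratio was -0.09, -0.06 and -0.04 in wild type, then -0.75, -0.79 and -0.38 in the mutant, a difference of -0.57 ± 0.13 (SE, adjusted p = 0.0115). On mutant arrays 1 and 2 a single stray spot read -1.81 and -1.42, while the mean of the other 6 was -0.58 and -0.68; with the median of the spots the difference was -0.48 (adjusted p = 0.0115). VPS60, an ESCRT-III-related gene, fell in the mutant (-0.22 ± 0.16, SD, adjusted p = 0.0466) but the call was lost under 8 of 13 alternatives, with values down to -0.04 (adjusted p = 0.704) once the length trend was removed and -0.12 (0.305) with arrays centred on the marker genes. VPS28 of ESCRT-I and VPS36 of ESCRT-II were called in neither strain. In all, 1 of the 8 rose and 1 fell in wild type, 4 rose and 2 fell in the mutant, and the strain difference was higher for 3 and lower for 1. These are 2, 6 and 4 of the 8, beside 66.0%, 65.6% and 45.8% of all genes.

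Subunits of an ESCRT complex differed among themselves also when those with other symbols were added, which were named as subunits after their values were seen except where a rule below names them. In ESCRT-I, STP22 (also VPS23), which binds ubiquitin, differed by -1.22 ± 0.22 (SE, adjusted p = 0.00513). It was at 0.50, 0.76 and 0.01 in wild type against -0.80, -0.48 and -1.09 in the mutant. The spread between its spots was up to 0.42 (SD). VPS28 differed by -0.29 (95% interval -0.57 to -0.02, adjusted p = 0.0783) and SRN2 by -0.09 ± 0.09 (SE). In ESCRT-II, SNF8 rose in both strains, to 0.33 ± 0.07 (SD) and 0.35 ± 0.10, with a difference of 0.02 and a spread between its spots of up to 0.59 (SD), against the fall of VPS25 in the mutant. In ESCRT-III, SNF7, the main filament subunit, was higher in the mutant (0.40 ± 0.13, SE, adjusted p = 0.0436) like VPS24, while DID4 (also VPS2) fell in both strains, by 0.46 and 0.40. VTA1, the cofactor of Vps4, fell in wild type (-0.63 ± 0.24, SD), was uncalled in the mutant (-0.12 ± 0.19) and was higher there by 0.52 ± 0.16 (SE, adjusted p = 0.0331). DOA4, which removes ubiquitin from the cargo, rose in wild type (0.91 ± 0.07, SD) but was at 0.02 ± 0.06 in the mutant, a difference of -0.89 ± 0.10 (SE, adjusted p = 0.000884).

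**Figure D3:**
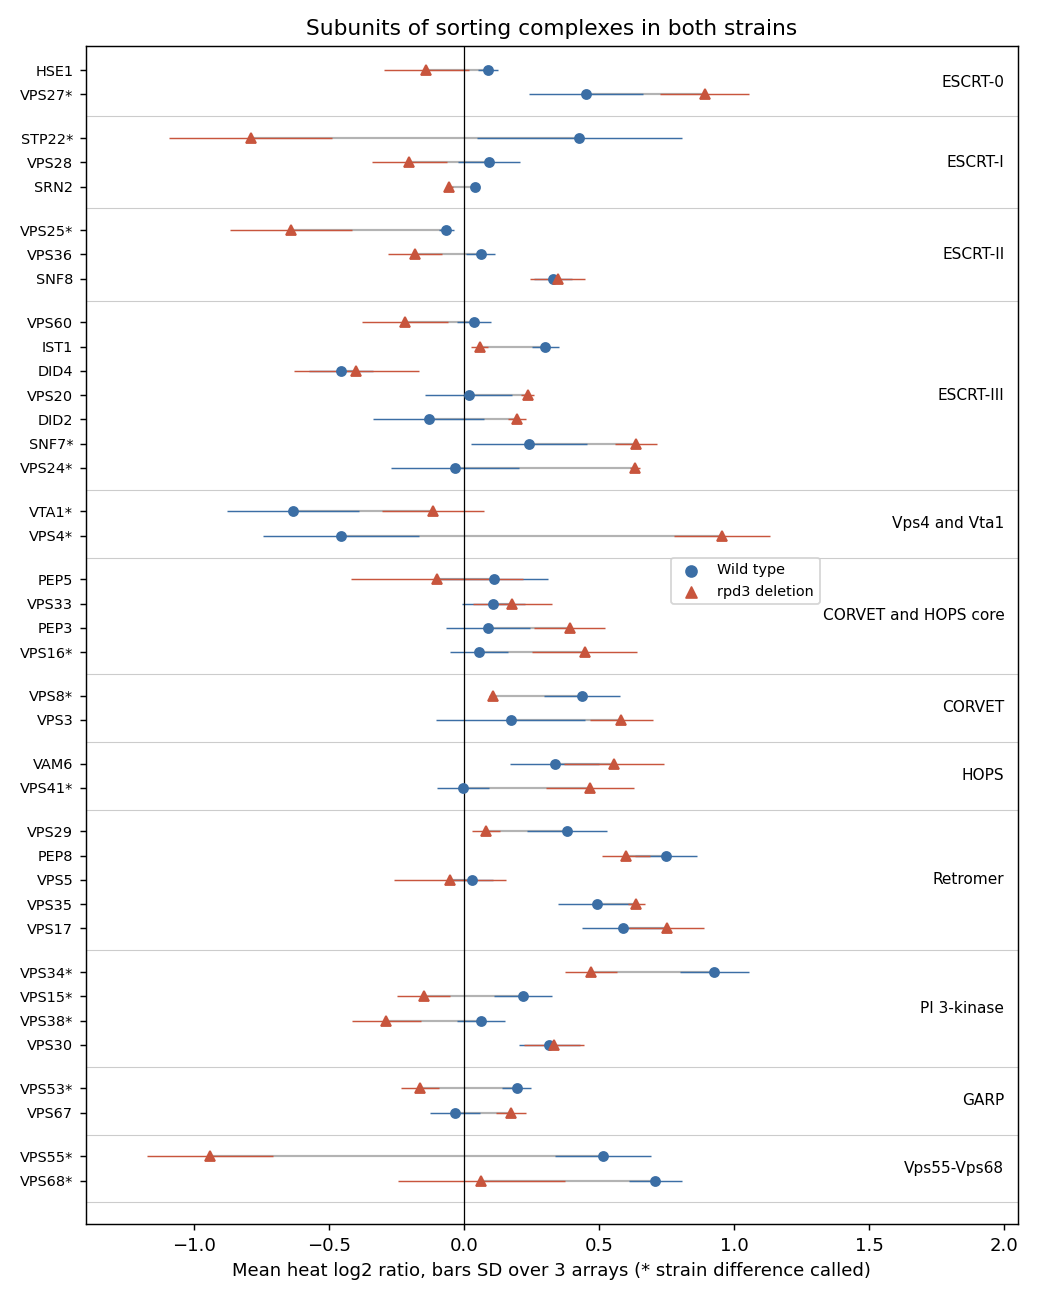
Mean heat log2 ratio (x axis) of the measured subunits of 12 complexes or sub-complexes in wild type (circles) and the rpd3 deletion (triangles), with bars of 1 SD over 3 arrays; an asterisk marks a called strain difference. The 5 retromer subunits have none, their differences ranging from -0.30 to 0.16, while VPS4 and VPS55 show the widest gaps among VPS symbols.

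Retromer, which carries receptors from endosomes back to the Golgi, showed 0 called strain differences among its 5 measured subunits, where 45.8% of all genes were called. The core subunit gene VPS35 rose in both strains, wild type (0.39, 0.43 and 0.66) and mutant (0.62, 0.63 and 0.67), as did the sorting nexin gene VPS17 (0.59, 0.43 and 0.74, then 0.87, 0.60 and 0.78). Their differences were 0.15 (95% interval -0.11 to 0.40) and 0.16 (-0.13 to 0.46). The core gene VPS29 rose in wild type (0.38 ± 0.15, SD, adjusted p = 0.00374) and was at 0.08 ± 0.05 in the mutant, not called there. Its difference of -0.30 (95% interval -0.56 to -0.04) missed the threshold over all genes (adjusted p = 0.0627), but passed it with arrays centred on the median of all genes (-0.35, adjusted p = 0.0356) or quantile normalized (-0.34, adjusted p = 0.0343). With arrays centred on the marker genes, the wild-type rise of VPS29 was no longer called (0.24, adjusted p = 0.0707). Its strain difference there was -0.06 and uncalled. VPS17 passed the threshold for the difference with that centring (0.40, adjusted p = 0.0495). PEP8 (also VPS26), the remaining core subunit and named here after its values were seen, rose in both strains, by 0.75 and 0.60.

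The sorting nexin gene VPS5 was uncalled, at 0.03 ± 0.08 for wild type against -0.05 ± 0.21 for the mutant, but its spots disagreed in the mutant. One spot read -2.00, -1.66 and -1.36 on mutant arrays 1 to 3, while the other 6 averaged 0.21, 0.01 and 0.43. On wild-type arrays that spot lay within the range of the others, at 0.06, -0.13 and 0.02. With the median of the spots VPS5 was at 0.22 in the mutant (adjusted p = 0.0630), so the sign of its mean there rests on that spot. By the RefSeq annotation 17.0% of VPS5 overlaps VAM10, which is not among the measured genes. Whether that spot reads the shared stretch was not tested. VPS15, VPS28, VPS38 and VPS41 also held a spot more than 1 away from the median of the gene on some array, and their calls in all 3 comparisons were the same with the median.

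PEP1 (also VPS10) encodes the receptor of carboxypeptidase Y, the cargo by which the VPS mutants were found and a passenger of retromer. It was uncalled in wild type (-0.10 ± 0.15) and fell in the mutant to -0.96 ± 0.15, the lowest of the partner genes there, with a difference of -0.86 ± 0.13 (SE, adjusted p = 0.00227). Of GARP, the tether at the receiving Golgi membrane, VPS53 rose slightly in wild type (0.19 ± 0.06, SD) and was lower in the mutant by 0.36 ± 0.10 (SE, adjusted p = 0.0216), at a mean of -0.16 that was not called. VPS67, now VPS51, was called in no comparison.

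Vps55 and Vps68 form a complex in the late endosomal membrane, and both genes rose in wild type and were lower in the mutant. VPS55 was at 0.38, 0.71 and 0.45 in wild type against -0.98, -0.69 and -1.15 in the mutant. Thus it rose by 1.43-fold in one strain and fell by 1.92-fold in the other, and its strain difference of -1.45 ± 0.15 (SE, adjusted p = 0.000803) was the lowest of the 40 genes. VPS68 was at 0.82, 0.62 and 0.69 in wild type, then -0.01, 0.40 and -0.20 in the mutant, where it was not called (difference -0.64 ± 0.16, adjusted p = 0.0170). VPS13 encodes a large lipid transfer protein of membrane contact sites. It rose in both strains, wild type (1.05, 0.60 and 0.82) and mutant (0.76, 0.40 and 0.88), with overlapping arrays and a difference of -0.15 (95% interval -0.54 to 0.25). VPS13 is the longest of the 40 genes, at 9435 bases, and ratios rose with gene length on all 6 arrays, by 0.04 to 0.13 per doubling for wild type against 0.12 to 0.25 for the mutant. With that trend removed, VPS13 was not called in the mutant (0.13, adjusted p = 0.278), and its strain difference was called lower (-0.49, adjusted p = 0.0220).

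The nuclear members are subunits of the SWR1 chromatin remodeller, which deposits the histone variant H2A.Z, and a histone chaperone. VPS72, the H2A.Z-binding subunit, was at 0.06, 0.09 and 0.43 in wild type, then 0.71, 0.70 and 0.85 in the mutant (difference 0.55 ± 0.13, SE, adjusted p = 0.0127). VPS71, another SWR1 subunit, was called nowhere, with a difference of -0.26 (95% interval -0.49 to -0.03, adjusted p = 0.0672). VPS75, the histone chaperone, fell in wild type (-0.20, -0.27 and -0.17) and rose in the mutant (0.35, 0.23 and 0.31). These small changes had tight replicates, and the difference of 0.51 ± 0.10 was called (adjusted p = 0.00553). The fall of VPS75 was not called with arrays centred on the median of all genes (-0.17, adjusted p = 0.0559). Nor was it with the length trend removed (-0.18, adjusted p = 0.062). VPS72 and VPS60 are neighbours in the gene order, and in the mutant one rose and the other fell.

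Genes that were named in later screens included several of the strongest changes. VPS73 encodes a protein of the sugar transporter family. It had the highest wild-type ratio of the 40 genes, at 1.87, 1.67 and 2.04, a 3.63-fold rise (adjusted p = 1.34e-05). In the mutant it was at 0.82, 1.04 and 0.88, a 1.88-fold rise, and the difference was -0.95 ± 0.13 (SE, adjusted p = 0.00167). VPS64, also FAR9, acts in recovery from pheromone arrest and was at -0.22, -0.71 and -0.16 in wild type against 0.71, 0.80 and 0.90 in the mutant (difference 1.17 ± 0.16, adjusted p = 0.00188). VPS66, now LOA1, encodes a lysophosphatidic acid acyltransferase, and was at -0.64, -0.90 and -0.85 in wild type, then 0.25, 0.52 and 0.22 in the mutant (difference 1.13 ± 0.13, adjusted p = 0.000932).

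VPS63 was at -0.73, -1.07 and -0.48 in wild type, then 0.27, 0.19 and 0.63 in the mutant (difference 1.13 ± 0.18, adjusted p = 0.00327). By the RefSeq annotation 97.9% of VPS63 lies within YPT6, the gene of a Golgi Rab GTPase, so VPS63 may not measure a transcript of its own. The spots named YPT6 read -0.35, -0.65 and -0.16 in wild type against 0.03, -0.11 and 0.38 in the mutant. The strain difference of YPT6 was 0.49 ± 0.18 (adjusted p = 0.0546). Within each strain its arrays stood in the same order as those of VPS63. VPS4 and VPS21 showed that order too, so it was not particular to this pair. Without VPS63, 20 genes rose in the mutant, 6 fell in wild type, and 11 were higher in the mutant. VPS70 fell in the mutant (-0.26 ± 0.20, SD, adjusted p = 0.0355), and VPS62 was called nowhere.

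**Figure D4:**
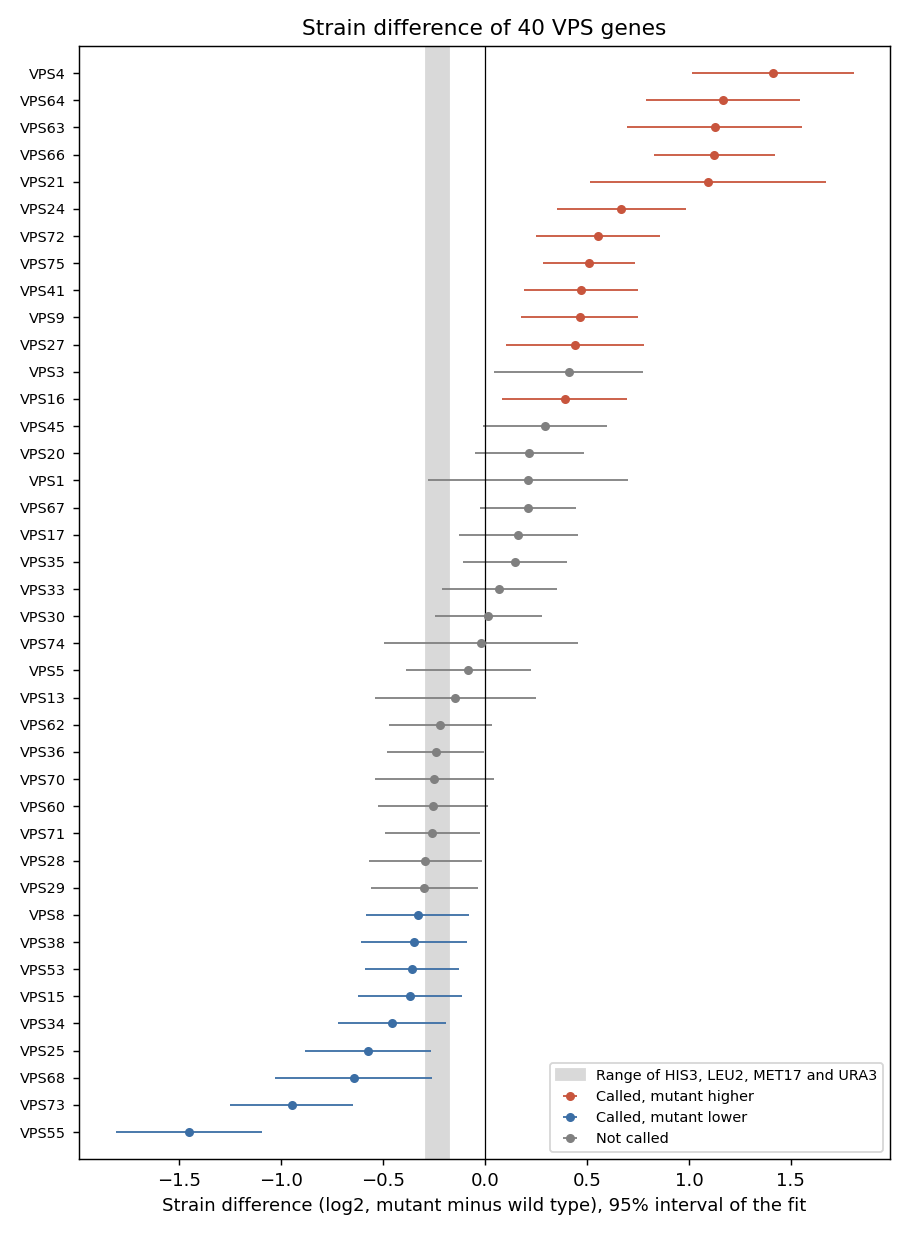
Strain difference (x axis, log2, mutant minus wild type) of the 40 VPS genes in rank order, with the 95% interval of the limma fit; the grey band is the range of HIS3, LEU2, MET17 and URA3. The differences run from -1.45 for VPS55 to 1.41 for VPS4, and the uncalled genes from VPS62 to VPS36, VPS70, VPS60 and VPS71 fall inside the band.

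The 4 marker genes that are deleted or cut in both strains were taken here as spots with little or no transcript. Spot intensities were not used to check this. Whether the ratio of such spots is the right zero for expressed genes was not tested. The strain difference of the 4 marker genes was -0.29 to -0.18, and 0 of the 4 were called. Their means were 0.12 to 0.18 for wild type against -0.14 to -0.06 for the mutant. VPS36, VPS60, VPS62, VPS70 and VPS71 had strain differences within that range. Of the 9 genes called lower in the mutant, VPS8, VPS15, VPS34, VPS38 and VPS53 differed by less than 0.5. With each array centred on the 4 marker genes, 17 of the 40 genes were higher in the mutant and 2 lower, VPS55 and VPS73. All genes together then split into 38.4% higher and 9.77% lower. The higher calls of VPS4, VPS24, VPS63, VPS64, VPS66 and VPS75 and the lower calls of VPS55 and VPS73 held under each of the 14 alternatives.

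The other 13 called strain differences were lost without one array or another. VPS16 also lost its call with arrays centred on the median of all genes (adjusted p = 0.0550), quantile normalized (0.0594) or cleared of the length trend (0.0718), and VPS27 did with the first of these (0.0524). VPS21 lost its call when wild-type array 1 was left out (adjusted p = 0.0506), and VPS25 did without mutant array 1 (0.0581). VPS72 was lost without wild-type array 1 (0.0551) or 2 (0.0524), VPS34 without wild-type array 2 (0.0569) or mutant array 1 (0.0600), and VPS68 without wild-type array 1 (0.0710) or mutant array 1 (0.0686). VPS9 and VPS41 were lost without wild-type array 1, wild-type array 2 or mutant array 1, with adjusted p of 0.0555 to 0.0747 and 0.0502 to 0.0831. For VPS15, VPS27 and VPS53 the call ended without wild-type arrays 1 or 2 or mutant arrays 1 or 3, with adjusted p of 0.0745 to 0.111, 0.0967 to 0.142 and 0.0515 to 0.0734. VPS8, VPS16 and VPS38 lost it for 5 of the 6 arrays, each leaving 0.0557 or more.

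Calls within a strain were also uneven. In wild type VPS9 and VPS75 lost their fall and VPS53 its rise for 4 of the 6 arrays, with adjusted p of 0.0559 to 0.246, 0.0562 to 0.111 and 0.0780 to 0.153. VPS15 lost its rise for 3 (0.0811 to 0.183) and VPS30 without wild-type array 3 (0.0559). VPS4 lost its fall without wild-type array 1 (0.0558) or 2 (0.0764), and VPS64 without array 2, at -0.19 (0.131). In the mutant VPS9, VPS60 and VPS70 lost their call for 5 arrays, VPS20 and VPS45 for 4 and VPS63 for 3, with adjusted p of 0.0526 to 0.234 in all. VPS38 lost it without mutant array 1 (0.0749) or 2 (0.0667), VPS30 and VPS75 without mutant array 1 (0.0705 and 0.0688), and VPS66 without mutant array 2 (0.0621). Besides VPS15, centring on the marker genes ended the wild-type rises of VPS27 (0.0561), VPS29 (0.0707), VPS30 (0.163) and VPS53 (0.619). Besides VPS60, it ended the mutant falls of VPS38 (0.102) and VPS70 (0.186). With the length trend removed VPS53 lost its wild-type rise (0.162), and VPS9 (0.0508) and VPS45 (0.0913) their mutant rises.

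Some uncalled members passed the threshold under other settings. With arrays centred on the marker genes the strain difference was called higher for VPS3 (0.65), VPS17 (0.40), VPS20 (0.46), VPS45 (0.53) and VPS67 (0.45). With arrays centred on all genes it was called lower for VPS28 (-0.34), VPS29 (-0.35) and VPS71 (-0.31), and with quantile normalization for those 3, VPS36 (-0.30) and VPS60 (-0.31). With the length trend removed it was called for VPS13, VPS36 (-0.29), VPS67 (0.38) and VPS70 (-0.36). VPS3 was also called without wild-type array 3 (0.57) or mutant array 2 (0.47), and VPS45 without mutant array 2 (0.37). In the mutant, VPS1 (0.41) and VPS33 (0.26) were called without mutant array 2. With the length trend removed the mutant ratio was called for VPS15 (-0.49), VPS36 (-0.26), VPS53 (-0.34), VPS62 (-0.20), VPS67 (0.44) and VPS68 (0.30). Quantile normalization added VPS28, VPS36, VPS53, VPS62 and VPS71, from -0.24 to -0.19, centring on the marker genes added VPS33 and VPS67, both 0.27, and centring on all genes added VPS72 in wild type (0.24).

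Among 58 further genes of the pathway, which have other symbols and were listed from general knowledge, 52 were measured. They are partners of the tethers, of retromer, of the ESCRTs, of the lipid kinase and of Rab5, and cargo adaptors. In wild type 21 rose and 8 fell, in the mutant 22 rose and 6 fell, and the strain difference was higher for 7 and lower for 8, beside the all-gene shares given above. Their median ratio was 0.11 and 0.19 in the respective strains, and their median difference 0.07. After YPT53, the highest wild-type ratio was that of MSB3, a GTPase activator of Rab proteins (1.22 ± 0.10, SD), and the lowest were those of APM3, of the AP-3 adaptor that carries cargo directly to the vacuole (-0.76 ± 0.18), and VTA1. In the mutant the clathrin heavy chain gene CHC1 came second highest (1.01 ± 0.42), and PEP1 and STP22 (-0.79 ± 0.30) were lowest. The highest strain differences were those of the AP-3 genes APM3 (0.64 ± 0.14, SE, adjusted p = 0.00953) and APL5 (0.60 ± 0.17, adjusted p = 0.0257), and the lowest those of STP22 and DOA4.

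By list, the strain difference was higher for 1 and lower for 1 of 12 tether partners, 1 and 1 of 9 retromer partners, 2 and 2 of 11 ESCRT partners, 0 and 1 of 6 lipid kinase partners, 1 and 1 of 5 Rab5 partners and 2 and 2 of 9 adaptors. In wild type these lists had 6 risen and 1 fallen, 3 and 1, 5 and 2, 2 and 0, 2 and 1, and 3 and 3 genes. In the mutant they had 6 and 2, 4 and 1, 3 and 2, 3 and 1, 2 and 0, and 4 and 0. Of all genes, 45.8% were called in either direction for the strain difference, 66.0% in wild type and 65.6% in the mutant.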

How the data were processed

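RNA was compared on 6 arrays of 2 channels, 3 per strain. The values are log2 ratios per spot that the authors deposited as 1 table; limma, without a version, is named per the submitters' processing notes, while for background correction, normalization, log base and sign the sources used here give nothing. Of 45220 spots 10 had no value, and the platform table named 28532 spots with 1 gene symbol. Spots were averaged per gene and array. All 6 arrays entered 1 fit in limma 3.58.1 (R 4.3.3) with a mean per strain, tested against 0 and against each other with eBayes (4 residual and 3.37 prior degrees of freedom) and Benjamini-Hochberg adjustment over 4073 genes. The log base was taken as 2. The fit was tested on simulated data. The number of arrays limits the precision, and scanner intensities were not used here, so dim spots could not be filtered. Calls were checked with other spot summaries, centrings, scalings, filters, a length trend, single arrays left out and a replicate block. All VPS symbols may be named; of partner genes, the 2 highest and 2 lowest called genes per comparison are named. The symbol rule for the members used no values, but the rule, the lists and the alternatives were set with earlier results of these data known. RefSeq names matched 4069 of the 4073 genes.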

Additional observations from a re-analysis of the deposited data

Results flagged for a closer look

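The heat ratio differed between the strains by the limma test of the difference itself for 21 of the 40 VPS genes. Higher in the mutant (log2, mutant minus wild type) were VPS4 (1.41), VPS64 (1.17), VPS63 (1.13), VPS66 (1.13), VPS21 (1.09), VPS24 (0.67), VPS72 (0.55), VPS75 (0.51), VPS41 (0.47), VPS9 (0.46), VPS27 (0.44) and VPS16 (0.39). Lower were VPS55 (-1.45), VPS73 (-0.95), VPS68 (-0.64), VPS25 (-0.57), VPS34 (-0.46), VPS15 (-0.37), VPS53 (-0.36), VPS38 (-0.35) and VPS8 (-0.33). Over all genes 45.8% had a called difference. No group held the 4 samples that a test for a single outlying array needs.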

How the results depend on the processing

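Of the 21 called strain differences, 8 were called under each of 14 alternatives, as were, under each of 13, 11 of 20 calls in wild type and 16 of 27 in the mutant, apart from members that the spot filter left out; no called value changed sign. Centring on HIS3, LEU2, MET17 and URA3 moved the all-gene median by -0.14 (wild type), 0.10 (mutant) and 0.24 (difference). It left 8 members higher in wild type (median -0.0842) and 3 lower in the mutant (0.33), with 2 lower for the difference (0.28). Higher calls then made up 89.5% of members called for the difference, against 57.1% before. Among all genes called for the difference these shares were 79.7% and 54.2%. Quantile normalization gave 11 lower members in the mutant and 14 for the difference (44.0% higher, beside 47.2% of all genes called). Centring on all genes gave a wild-type median of 0.11 and, for the difference, 10 higher and 12 lower (45.5%, beside 49.1%). With the filter on spot spread, which left out 12 members, the median was 0.31 in the mutant and 0.15 for the difference.

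Leaving out 1 array at a time gave 11 to 13 higher and 3 to 7 lower members in wild type (median 0.0287 to 0.11), 15 to 21 and 3 to 6 in the mutant (0.19 to 0.27), and 6 to 14 and 2 to 7 for the difference (-0.0067 to 0.15). Cultures were independent, and same-numbered arrays of the strains did not pair throughout (r of deviations -0.22, 0.21 and 0.42). With the replicate block 14 members were higher and 8 lower.
The block ended the call of VPS38 (adjusted p = 0.0511), added those of VPS3 (0.0294) and VPS45 (0.0497), changed no other of the members and left 1131 higher and 962 lower of all genes. Without wild-type arrays 1 and 2 in turn, 480 and 507 of all genes were lower, and without mutant array 1, 643 were higher and 450 lower, against 1012 and 854.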
